A study of Homo sapiens with 8 samples.

Results

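PAX genes encode transcription factors that bind DNA through a paired domain, and 7 of them were followed here through a culture that leads from stem cells to endoderm of the pharynx. They are PAX1, PAX9, PAX2, PAX8, PAX3, PAX7 and PAX6, taken by symbol from the GENCODE 29 annotation, and they are 7 of the 58780 genes in the deposited tables. RNA came from H1, an established human embryonic stem cell line, in the undifferentiated state (hESC) and after directed differentiation to definitive endoderm (hDE), to anterior foregut endoderm (hAFE) and to pharyngeal foregut endoderm (hPFE), with 2 libraries at each of these 4 stages. The labels name no added gene, allele or reporter, and give no word on whether replicate libraries were grown as separate cultures. The p-values therefore reflect variation among these particular libraries, part of which may be technical. By their titles, the libraries of hESC and hDE are re-analyses of earlier data, and those of hAFE and hPFE are not, so in any comparison of hAFE or hPFE with hESC or hDE the stage and the origin of the library cannot be told apart.

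PAX proteins fall into subgroups. PAX1 and PAX9 form the subgroup without a homeodomain. In vertebrate embryos both are known in the endoderm of the pharyngeal pouches, from which thymus and parathyroid arise, and in the sclerotome, the part of the somite that forms vertebrae. PAX2 and PAX8 act in kidney, and PAX8 is also a regulator of thyroid genes. PAX3 and PAX7 act in neural tube, neural crest and muscle precursors, and PAX6 in eye, brain and endocrine pancreas.

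PAX1 and PAX9 are close relatives, so it matters whether short reads can tell their transcripts apart. The longest stretch that any annotated transcript of PAX1 shared exactly with any of PAX9 was 23 bases. It lay in coding sequence of both genes, at chr20:21706855-21706937 in PAX1 and chr14:36663320-36663402 in PAX9 (hg38, plus strand). In the lines below capitals mark that shared run and lower case the 30 bases on either side.
PAX1: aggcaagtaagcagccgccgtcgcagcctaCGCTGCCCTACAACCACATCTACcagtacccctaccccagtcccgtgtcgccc
PAX9: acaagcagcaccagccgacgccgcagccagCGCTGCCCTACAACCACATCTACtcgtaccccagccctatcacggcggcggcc
Over all pairs of the 7 genes the longest exact run was 13 to 33 bases, the longest of them between PAX3 and PAX7. The deposited posterior standard deviation of the count, which grows where reads fit several genes, was 0 for each of the 7 genes in each library.

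The libraries held 12687161 to 17802900 counts, of which 10.6% to 18.4% were mitochondrial ribosomal RNA. Pluripotency and definitive endoderm markers followed the labels. The summed TPM of 5 pluripotency genes was 712 and 854 in hESC, 28.8 and 42.9 in hDE, 1.71 and 3.0 in hAFE, and 1.11 and 1.41 in hPFE. The sum over 5 definitive endoderm genes was 0.97 and 1.35 in hESC, 2350 and 2670 in hDE, 10.8 and 21.5 in hAFE, and 19.9 and 14.2 in hPFE. Marker sums did not separate hAFE from hPFE. That of 7 pharyngeal endoderm genes was 15.7 and 39.0 in hAFE, and 24.1 and 26.3 in hPFE. That of 5 anterior foregut and endoderm genes was 154 and 101 in hAFE, and 129 and 187 in hPFE. TPM is a length-corrected share of all transcripts, so it allows levels of different genes to be set side by side. Folds and tests were computed from counts.

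Of the 7 genes, PAX1 and PAX9 reached 1 TPM in at least 1 library, PAX1 only in hPFE and PAX9 in hAFE and hPFE, and none of the others did. The 7 genes summed to 0.20 and 0.48 TPM in hESC, 0.75 and 0.53 in hDE, 4.81 and 3.29 in hAFE, and 20.2 and 9.90 in hPFE. PAX1 and PAX9 together made up 5.0% and 4.17% of that sum in hESC, 61.3% and 34.0% in hDE, 83.2% and 96.0% in hAFE, and 92.5% and 94.1% in hPFE. The 5 genes of other tissues summed to 1.52 and 0.58 TPM in hPFE, the stage with the most. In bulk RNA, fewer cells of a type and less RNA per cell cannot be told apart, so none of these levels is a level per cell.

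**Figure D1:**
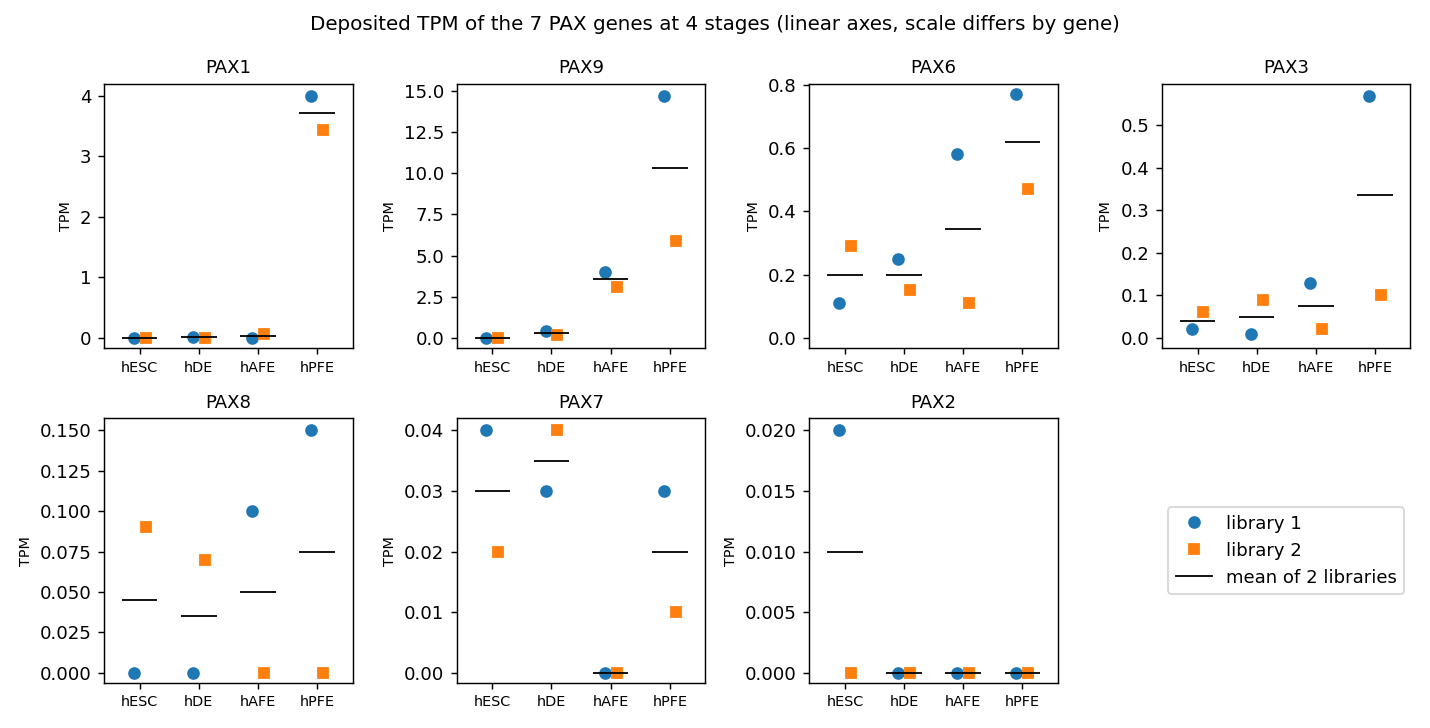
Deposited TPM (linear axes, scale differs by gene) of the 7 PAX genes at the 4 stages; circles and squares are libraries 1 and 2, lines the mean of both. PAX1 stands at 4.00 and 3.44 TPM in hPFE and at most 0.07 elsewhere, PAX9 climbs over hDE, hAFE and hPFE, and the other 5 genes stay below 1 TPM in every library.

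PAX1 (ENSG00000125813.13, chr20:21705659-21718486 on hg38, plus strand) was the gene that marked the last stage. Its counts were 0 and 0 in hESC, 1 and 0 in hDE, 0 and 9 in hAFE, and 436 and 240 in hPFE. In TPM it stood at 0 and 0 in hESC, 0.02 and 0 in hDE, 0 and 0.07 in hAFE, and 4.00 and 3.44 in hPFE. Both hPFE libraries were far above all 6 others, which overlapped each other near 0. The hPFE libraries differed by 1.53-fold in CPM (relative to library size, corrected for composition by TMM). That level placed PAX1 above 52.7% and 42.7% of the 17446 genes tested in those libraries.

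Set against hAFE, the stage just before it, PAX1 averaged 21.9 ± 6.47 CPM in hPFE and 0.329 ± 0.465 CPM in hAFE (SD, n = 2 each). The log2 fold change was 6.07 (SE 0.932, edgeR adjusted p = 0.0161). PAX1 was the one of the 3 testable PAX genes that rose in hPFE vs hAFE, a comparison in which 7.49% of all tested genes were called, 4.77% higher and 2.71% lower in hPFE. Without any one of the 8 libraries the rise stayed called, but with DESeq2 the adjusted p was 0.15, and with edgeR fitted to only the hPFE and hAFE libraries the edgeR adjusted p was 0.0895. The fold itself rested on the 9 counts of the second hAFE library, and without that library the fitted log2 fold change was 11.35.

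PAX1 was also higher in hPFE than in hDE, with 676 counts over both hPFE libraries and 1 count over both hDE libraries. That is a ratio of 558 with a 95% exact counting interval of 99.8 to 22100 (edgeR adjusted p = 0.00229). Against hESC, where PAX1 had 0 counts, it was at least 255-fold higher in hPFE, taking 3 counts over the stage as the most that 0 allows (edgeR adjusted p = 0.00142). Intervals and floors of this kind cover counting error only.

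Before hPFE no difference in PAX1 passed the edgeR test, and the values turned on single hAFE libraries. In hAFE vs hDE the counts were 9 and 1 over the libraries of each stage, a ratio of 7.82 with a 95% counting interval of 1.08 to 343 (edgeR adjusted p = 0.282). Without the first hAFE library, which had 0 counts, that comparison was called (log2 fold change 3.78, edgeR adjusted p = 0.0427), and without the second hAFE library the fitted value was -2.54. In hDE vs hESC, 1 count stood against 0 (edgeR adjusted p = 0.509). In hAFE vs hESC the 9 counts made PAX1 at least 3.58-fold higher in hAFE than the floor of hESC (edgeR adjusted p = 0.0994), and it was called without the first hAFE library (edgeR adjusted p = 0.0126) and with no count filter (edgeR adjusted p = 0.00123).

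PAX9 (ENSG00000198807.12, chr14:36657568-36679715 on hg38, plus strand) was detected earlier than PAX1 and reached higher levels. Its counts were 1 and 3 in hESC, 62 and 29 in hDE, 384 and 298 in hAFE, and 1576 and 396 in hPFE. In TPM it was at 0.01 and 0.02 in hESC, 0.44 and 0.18 in hDE, 4.00 and 3.09 in hAFE, and 14.69 and 5.88 in hPFE. The ranges of the 4 stages did not overlap, and each stage stood above the one before it. Among all tested genes PAX9 lay above 28.7% and 16.9% in the hDE libraries, 52.8% and 48.2% in hAFE, and 84.1% and 53.4% in hPFE.

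PAX9 averaged 62.1 ± 47.4 CPM in hPFE and 23.6 ± 2.53 CPM in hAFE (SD, n = 2 each), and this last step did not pass the test (log2 fold change 1.40, SE 0.556, edgeR adjusted p = 0.160). The hPFE libraries differed by 3.35-fold, the first at 95.7 CPM and the second at 28.6 CPM, while the hAFE libraries differed by 1.16-fold. Without the second hPFE library the comparison was called (log2 fold change 2.01, edgeR adjusted p = 0.0285). Without the first hPFE library the log2 fold change was 0.28 (edgeR adjusted p = 0.745).

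The earlier steps of PAX9 passed. In hAFE vs hDE it rose by 2.65 on the log2 scale (SE 0.625, edgeR adjusted p = 0.0161), a comparison in which 30.2% of all tested genes were called (15.0% higher and 15.2% lower in hAFE). That call was lost without the second hDE library (edgeR adjusted p = 0.113). The ratio of mean levels was 6.19 in CPM and 11.4 in TPM, and the median tested gene was 0.496 higher in hAFE than in hDE on the log2(TPM + 1) scale, so TPM values of hDE are low relative to those of the later stages. In hDE vs hESC, where 41.9% of genes were called (20.3% higher and 21.6% lower in hDE), PAX9 rose by 4.91 on the log2 scale (SE 1.05, edgeR adjusted p = 0.00827). That call was lost without the first hESC library (edgeR adjusted p = 0.0594) and with limma on log2(TPM + 1), a scale that compresses low levels (limma adjusted p = 0.50).

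Over longer spans PAX9 rose by 8.96 in hPFE vs hESC (SE 0.939, edgeR adjusted p = 0.000449), by 4.05 in hPFE vs hDE (SE 0.645, edgeR adjusted p = 0.00277) and by 7.56 in hAFE vs hESC (SE 0.943, edgeR adjusted p = 0.00108), all on the log2 scale. These calls held in each of the 14 alternatives. Genes called made up 45.0% of those tested in hPFE vs hESC (21.6% higher, 23.3% lower), 33.6% in hPFE vs hDE (16.6% higher, 17.0% lower) and 39.8% in hAFE vs hESC (19.2% higher, 20.6% lower). Both PAX1 and PAX9 of the 3 tested PAX genes were called in the first and second of these comparisons and PAX9 in the third.

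**Figure D2:**
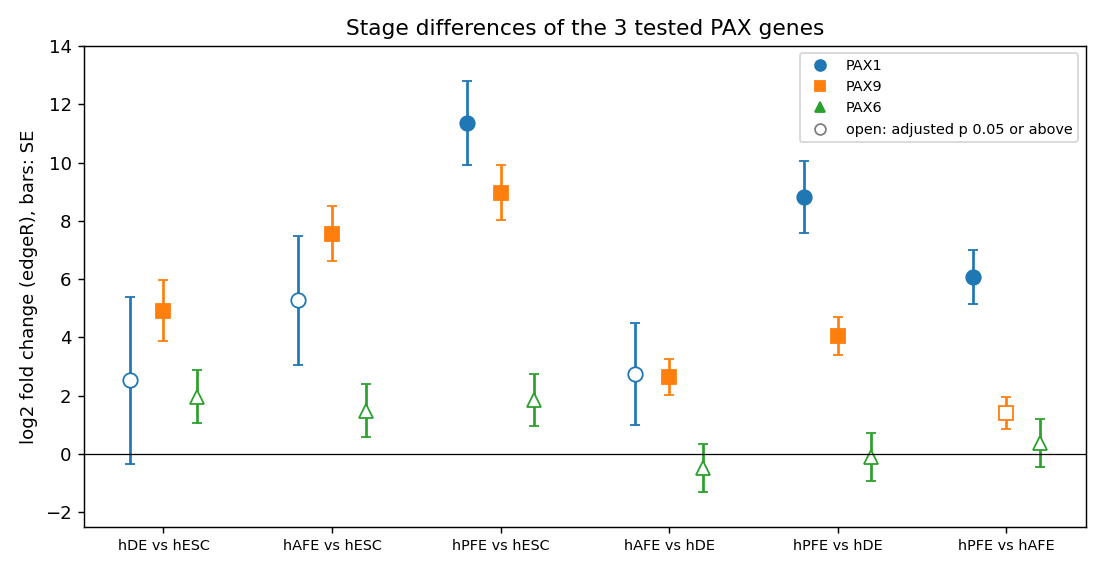
Fitted log2 fold change (edgeR, later stage over earlier) with SE bars for PAX1, PAX9 and PAX6 in the 6 stage comparisons; filled symbols passed the 0.05 threshold of the adjusted p. PAX9 passed in 5 comparisons and PAX1 in the 3 that involve hPFE, while PAX6 passed in none; PAX1 values against stages at 0 or 1 count depend on the prior count and have wide bars.

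PAX9 exceeded PAX1 in every library that held both. The ratio of PAX9 to PAX1 in TPM was 3.67 and 1.71 in hPFE, 44.1 in the second hAFE library and 22.0 in the first hDE library, which rested on 1 PAX1 count. Across the 8 libraries the log2(TPM + 1) values of PAX1 and PAX9 had a Pearson correlation of 0.798, given as a description, since libraries of a stage share their stage.

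PAX9 has annotated transcripts with different starts. The shorter of its longest models, ENST00000402703.6 (3104 bases), begins at 36657568 and ENST00000361487.6 (4514 bases) at 36661865. The deposited mean transcript length of PAX9, weighted by the estimated isoform levels, was 4514 bases in both hESC libraries, 3978 and 3948 in hDE, 3945 and 4170 in hAFE, and 3909 and 4267 in hPFE. With 1 and 3 counts, the hESC lengths rest on almost no reads, and the lengths of the later stages overlapped. For PAX1, whose annotated models include 5352, 2838 and 1850 bases, the mean length was 3964 and 4420 in the hPFE libraries.

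The sequence before both PAX9 start regions is shown because the annotated body of an antisense gene, described next, spans the first of them. The lines give the plus strand from RefSeq (GRCh38.p14). The upper one holds the 250 bases at chr14:36657318-36657567 that end at the upstream start. The lower one holds 87 bases at chr14:36661610-36661696 and does not reach the downstream start at 36661865. It stops where an exon of another PAX9 transcript begins. Capitals mark AACAAT, the core letters bound by SOX proteins, or its reverse complement.
PAX9 upstream start: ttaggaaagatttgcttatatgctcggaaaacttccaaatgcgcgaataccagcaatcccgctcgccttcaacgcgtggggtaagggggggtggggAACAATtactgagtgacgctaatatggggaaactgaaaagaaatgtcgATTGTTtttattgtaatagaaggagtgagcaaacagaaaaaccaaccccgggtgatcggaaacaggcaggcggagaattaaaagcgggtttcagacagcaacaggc
PAX9 downstream start: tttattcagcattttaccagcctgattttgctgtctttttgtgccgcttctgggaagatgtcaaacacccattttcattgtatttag
AACAAT occurred 2 times in the 300-base window of the upstream start, which adds 50 bases past the start, and 0 times in that of the downstream start. At least 1 match on either strand was present in 10.1% of the 35116 promoter windows of that length. TGTTTAC, a forkhead motif, was in neither window and in 3.42% of all windows, TATAAA in neither and in 11.5%, and TAATTA, a homeobox core, in neither and in 4.84%. The GC box GGGCGG had 0 matches in the upstream window and 2 in the downstream one, against 45.0% of all windows with a match, and CCAAT had 0 and 1, against 34.6%. The upstream window held 19 CpG and the downstream one 12, with a median of 14 over all windows. A promoter row was found for 6 of the 7 genes, and PAX1 was not among them.

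At the PAX9 locus an antisense RNA was low in the same stages in which PAX9 was low. AL079303.1 (chr14:36647083-36658801, minus strand) overlaps the upstream PAX9 start, and its counts were 0 and 0 in hESC, 0 and 2 in hDE, 13 and 7 in hAFE, and 72 and 14 in hPFE. The first library was the higher in hAFE and hPFE for PAX9 as well. AL079303.1 passed in hPFE vs hESC (edgeR adjusted p = 0.00577, in all 14 alternatives too), in hPFE vs hDE (edgeR adjusted p = 0.0172) and in hAFE vs hESC (edgeR adjusted p = 0.0282), and did not pass in hPFE vs hAFE (edgeR adjusted p = 0.196). The call in hPFE vs hDE was lost without either hDE library or without the first hPFE library (edgeR adjusted p 0.0638 to 0.098). The call in hAFE vs hESC was lost without either hESC library or without the first hAFE library (edgeR adjusted p 0.0731 to 0.107), and with limma (limma adjusted p = 0.363).

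SLC25A21, a mitochondrial carrier gene on the minus strand (chr14:36678431-37172866), overlaps the other end of PAX9 and had another pattern. Its TPM was 2.49 and 2.66 in hESC, 0.51 and 0.68 in hDE, 2.21 and 2.14 in hAFE, and 1.43 and 2.68 in hPFE. It was lowest in hDE, and it fell by 1.46 on the log2 scale in hDE vs hESC (edgeR adjusted p = 0.00342). Its rise in hAFE vs hDE of 1.04 (edgeR adjusted p = 0.0183) was lost without either hDE library or the first hAFE library (edgeR adjusted p 0.0606 to 0.122). The libraries keep strand, but the strand setting of the counting was not given in the sources used here. Reads in the overlaps of PAX9 with these genes may thus have been counted for either gene, which was not tested. The deposited posterior standard deviation of the count was 0 in each library for PAX9, AL079303.1 and SLC25A21.

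**Figure D3:**
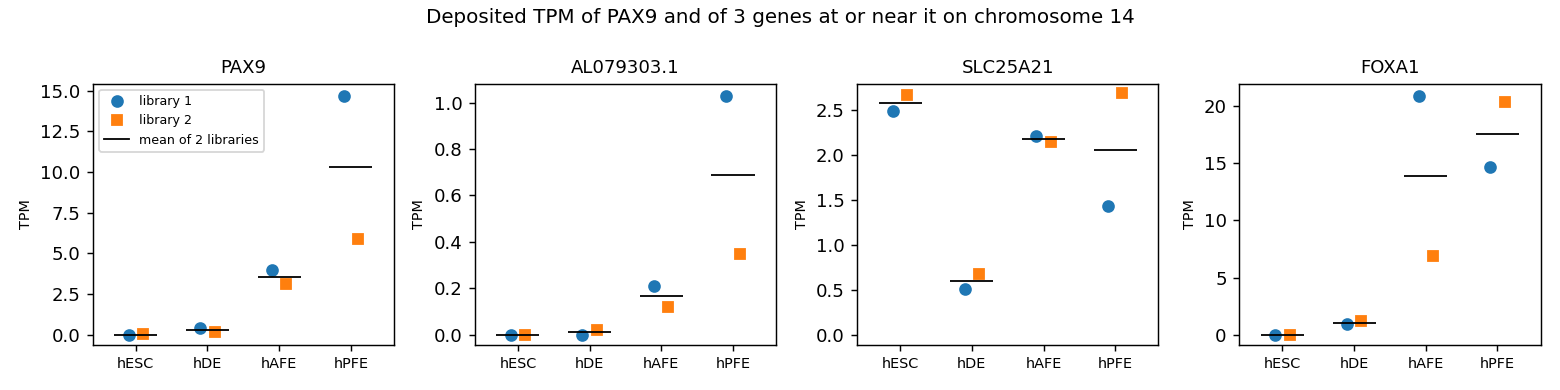
Deposited TPM (linear axes, scale differs by gene) of PAX9, of the genes AL079303.1 and SLC25A21 that overlap it on the opposite strand, and of FOXA1 on the same chromosome; circles and squares are libraries 1 and 2, lines their mean. AL079303.1 reaches 1.03 and 0.35 TPM in hPFE, where PAX9 is at 14.69 and 5.88, while SLC25A21 is lowest in hDE at 0.51 and 0.68.

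Within 250 kb of PAX9 the annotation has 13 other genes, of which 3 were at 0 counts and 2, the overlapping genes above, could be tested. NKX2-8 and NKX2-1, homeobox genes 75.0 and 136.4 kb away, stayed at or below 0.08 and 0.21 TPM. NKX2-1, a regulator of thyroid and lung, was at 0.21 and 0.03 TPM in hPFE. Around PAX1 the annotation has 12 genes, of which 7 were at 0 counts and 1 was tested. That gene, the noncoding AL133325.3 at a distance of 202.7 kb, was lower in hAFE than in hESC (log2 fold change -2.96, edgeR adjusted p = 0.00566) and lower in hPFE than in hESC (log2 fold change -2.15, edgeR adjusted p = 0.0120). The first call was lost without the first hESC library (edgeR adjusted p = 0.0541), and the second in 4 of 14 alternatives. LINC01726, 2.1 kb from PAX1, had 2 and 2 counts in hPFE and 0 in the 6 other libraries.

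Of a list of 9 genes of the wider PAX9 and PAX1 regions, 5 were tested. The forkhead factors FOXA1 and FOXA2, which act throughout foregut endoderm, rose and SLC25A21 fell in hPFE vs hESC, the SLC25A21 call being lost without either hESC library (edgeR adjusted p 0.0654 and 0.0777). FOXA1 was at 0 and 0 TPM in hESC, 0.91 and 1.24 in hDE, 20.91 and 6.86 in hAFE, and 14.71 and 20.33 in hPFE. In the first hAFE library FOXA1 was 2.94-fold higher than in the second, and in hPFE the libraries differed by 1.05-fold in CPM, unlike those of PAX9. In the other comparisons, 2 of the 5 were higher and 1 lower in hDE vs hESC, 2 higher in hAFE vs hDE, 1 higher in hPFE vs hDE and 3 higher in hAFE vs hESC. Over all tested genes the shares called were 45.0% in hPFE vs hESC, 41.9% in hDE vs hESC and 30.2% in hAFE vs hDE. They were 33.6% in hPFE vs hDE, 39.8% in hAFE vs hESC and 7.49% in hPFE vs hAFE. In hPFE vs hAFE edgeR, DESeq2 and limma each called 0, and 1 had an unadjusted edgeR p under 0.05. The median log2 fold change of the 5 in hPFE vs hESC was 0.42, beside 0.02 over all tested genes.

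PAX6 (ENSG00000007372.22, chr11:31784779-31818062, minus strand) was the only other PAX gene with enough counts to test. It had 5 and 9 counts in hESC, 19 and 21 in hDE, 29 and 5 in hAFE, and 39 and 8 in hPFE. Its TPM was 0.11 and 0.29 in hESC, 0.25 and 0.15 in hDE, 0.58 and 0.11 in hAFE, and 0.77 and 0.47 in hPFE. The hAFE libraries spanned the range of the earlier stages, and the first library was 5.24-fold higher than the second in hAFE and 4.10-fold higher in hPFE, in CPM.

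None of the 6 comparisons of PAX6 passed with edgeR, DESeq2 or limma, and 0 had an unadjusted edgeR p under 0.05. Its log2 fold change was 1.96 in hDE vs hESC (SE 0.907, edgeR adjusted p = 0.119), 1.85 in hPFE vs hESC (SE 0.899, edgeR adjusted p = 0.128) and 0.37 in hPFE vs hAFE (SE 0.826, edgeR adjusted p = 0.820). The first of these was called with only the hDE and hESC libraries in the fit (edgeR adjusted p = 0.00313) and with no count filter (edgeR adjusted p = 0.0107), and the second with no count filter (edgeR adjusted p = 0.0139). Its direction in hAFE vs hDE depended on the unit, with a ratio of mean levels of 0.71 in CPM and 1.72 in TPM. ELP4, on the opposite strand, overlaps PAX6 and held 257 to 563 counts per library. PAX6 counts this low may include ELP4 reads, which was not tested. The deposited posterior standard deviation of the PAX6 count was 0 in each library. Of 8 neural tube and eye genes 2 were tested, and their sum was 1.29 TPM in both hPFE libraries. Among all tested genes 41.9% were called in hDE vs hESC, 39.8% in hAFE vs hESC and 33.6% in hPFE vs hDE. SIX3, an eye and forebrain factor, was called higher in hDE vs hESC and in hAFE vs hESC, and DCX, a gene of young neurons, in hPFE vs hDE. Each of these calls was lost without single libraries, those of SIX3 without either hESC library (edgeR adjusted p 0.0841 to 0.12) and that of DCX without the first hPFE library (0.154) among others. SOX1, a neural tube factor, was at 0.26 and 0.05 TPM in hPFE. In pancreas, PDX1, INS and PTF1A were at 0 counts in all libraries, and the 5 pancreas genes summed to at most 0.40 TPM.

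PAX3 (ENSG00000135903.19) and PAX7 (ENSG00000009709.11) stayed under the count filter. PAX3 had 2 and 6 counts in hESC, 1 and 1 in hDE, 6 and 1 in hAFE, and 30 and 3 in hPFE. The 30 counts of the first hPFE library, 0.57 TPM, were the most of any library, and the second hPFE library at 0.10 TPM lay within the range of the earlier stages. With no count filter PAX3 was called higher in hPFE than in hESC and hDE, and without the second hPFE library likewise. PAX7 had 7 and 4 counts in hESC, 5 and 6 in hDE, 0 and 0 in hAFE, and 4 and 1 in hPFE, at most 0.04 TPM. With no count filter PAX7 was called lower in hAFE than in hDE and hESC. A count of 0 over the hAFE libraries allows a level of up to 0.104 CPM.

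Of the neural crest and muscle markers, ETS1 was the most abundant in hPFE. SOX10 and FOXD3, transcription factors of neural crest, were at 0 TPM in both hPFE libraries and fell in hPFE vs hESC, while TFAP2A, another crest and epidermal factor, rose to 0.23 and 0.44 TPM in hPFE, against 0.05 and 0.02 TPM in hESC. Of 5 neural crest genes 4 were tested, and 1 rose and 2 fell in that comparison, where 45.0% of all tested genes were called. The TFAP2A call was lost without either hESC library, without the first hPFE library (edgeR adjusted p 0.0565 to 0.124) and with DESeq2 (0.0921). ETS1, an ETS factor of crest and endothelium, was at 1.62 and 1.95 TPM in hESC and 2.14 and 1.95 TPM in hDE. It was lower in hAFE, at 0.86 and 0.46 TPM, and stood at 3.09 and 5.54 TPM in hPFE. Its rise in hPFE vs hAFE was 2.31 on the log2 scale (edgeR adjusted p = 0.0169), a call lost with only those libraries in the fit (0.129). ETS1 did not pass in hPFE vs hESC (log2 fold change 0.42, edgeR adjusted p = 0.372) or in hPFE vs hDE (-0.228, edgeR adjusted p = 0.66). Limma on log2(TPM + 1) called ETS1 in both, where its mean TPM was higher in hPFE (4.31) than in hESC (1.79) and hDE (2.04). On that scale the median tested gene was itself 0.362 higher in hPFE than in hESC and 0.68 higher than in hDE. MYF5, which starts the muscle programme, was at 0 counts in all libraries, and MYOD1 and MYOG were at 0 TPM in hPFE.

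PAX2 and PAX8 were near the limit of detection. PAX2 (ENSG00000075891.21) had 1 count in the first hESC library and 0 in the other 7. PAX8 (ENSG00000125618.16) had 0 and 11 counts in hESC, 0 and 2 in hDE, 1 and 0 in hAFE, and 5 and 0 in hPFE, at most 0.15 TPM. In each stage 1 library held 0 PAX8 counts, so the stages overlapped throughout. PAX8-AS1, antisense to PAX8, was at most 0.11 TPM.

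The tissue markers that go with PAX2 and PAX8 were mixed. Among 6 thyroid genes, TG, the thyroid hormone precursor, was at 0.03 and 0.20 TPM in hPFE. FOXE1, a forkhead factor of thyroid and pharynx, was at 4.57 and 17.17 TPM in hPFE and 0.18 and 0.86 TPM in hAFE, without overlap. It was the 1 thyroid gene of 3 tested that rose in hPFE vs hAFE (log2 fold change 3.97, SE 0.739, edgeR adjusted p = 0.0224), and 6 of 14 alternatives lost that call with edgeR adjusted p of 0.0532 to 0.129, among them the fit to only the libraries compared and leaving out either hESC library, either hDE library or the second hPFE library. Over all tested genes 7.49% were called in hPFE vs hAFE. Among 5 kidney and intermediate mesoderm genes 3 were tested. LHX1 rose in hDE vs hESC and fell in hAFE vs hDE, OSR1 was called higher in hAFE vs hESC and hAFE vs hDE, and WT1 was at most 0.05 TPM. OSR1 was at 4.99 TPM in the first hAFE library and 0.13 TPM in the second, and without the first the edgeR adjusted p was 0.20 in hAFE vs hESC and 0.398 in hAFE vs hDE. Of 5 otic placode genes, 3 were tested, and SOX10 and FOXI1 rose in hDE vs hESC and fell in hAFE vs hDE. For the kidney and otic lists, the shares of all tested genes called were 41.9% in hDE vs hESC, 30.2% in hAFE vs hDE and 39.8% in hAFE vs hESC.

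Other genes of the pharynx were followed to place PAX1 and PAX9 among them. All 7 genes of a pharyngeal endoderm list were tested. In hPFE vs hESC 5 rose and 0 fell, in hPFE vs hDE 3 rose and 1 fell, in hAFE vs hDE 5 rose and 1 fell, in hAFE vs hESC 6 rose, and in hDE vs hESC 2 rose. In hPFE vs hAFE edgeR called 0, 4 had an unadjusted edgeR p under 0.05, and DESeq2 called 4, all lower in hPFE and EYA1 among them, while limma on log2(TPM + 1) called 1. Over all tested genes the shares called were 45.0% in hPFE vs hESC, 33.6% in hPFE vs hDE, 30.2% in hAFE vs hDE, 39.8% in hAFE vs hESC, 41.9% in hDE vs hESC and 7.49% in hPFE vs hAFE. Limma called 3 of the 7 in hPFE vs hESC and 3 in hAFE vs hESC. The list's median log2 fold change in hPFE vs hAFE was -1.09, beside -0.03 over all tested genes. EYA1, a phosphatase and transcriptional cofactor, was at 2.22 and 6.70 TPM in hPFE and 6.10 and 16.71 TPM in hAFE, with a log2 fold change of -1.80 (edgeR adjusted p = 0.0714) that was called in 4 of 14 alternatives.

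The hAFE libraries differed more in TBX1, ISL1 and HOXA3 than in PAX9. TBX1, a T-box factor of the pharynx, was 8.25-fold higher in the second hAFE library than in the first, and ISL1 7.62-fold. HOXA3, a factor of the third pouch, was 48.8-fold higher in the first. PAX9 differed between the same libraries by 1.16-fold. HOXA3 was at 0.82 and 1.07 TPM in hPFE, and its call in hPFE vs hESC (edgeR adjusted p = 0.0366) was lost without either hESC library or either hPFE library (edgeR adjusted p 0.073 to 0.126) and with limma (limma adjusted p = 0.13). The 4 genes of thymus and parathyroid, the organs of the pouches, summed to at most 0.08 TPM in any library. FOXN1, the thymus epithelial factor, was at 0.02 and 0.04 TPM in hPFE, GCM2, the parathyroid factor, at 0 and 0.03 TPM, and PTH at 0 counts in all libraries.

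**Figure D4:**
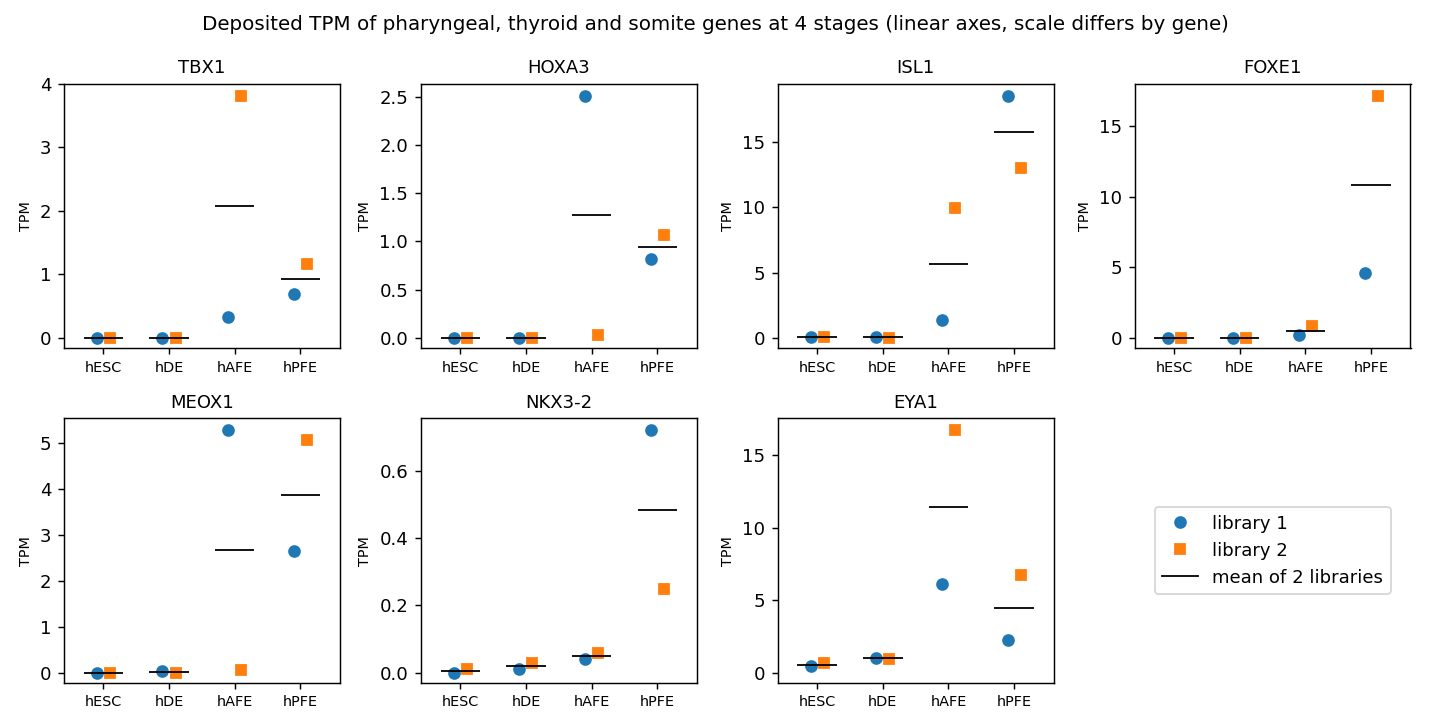
Deposited TPM (linear axes, scale differs by gene) of pharyngeal (TBX1, HOXA3, ISL1, EYA1), thyroid and pharyngeal (FOXE1) and somite (MEOX1, NKX3-2) genes at the 4 stages; circles and squares are libraries 1 and 2, lines their mean. In hAFE the libraries differ strongly, with TBX1 at 0.33 and 3.81, HOXA3 at 2.51 and 0.03 and MEOX1 at 5.28 and 0.06, and FOXE1 is highest in hPFE at 4.57 and 17.17.

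PAX1 and PAX9 are also sclerotome genes, so somite markers were set beside them. The 8 genes of somite, sclerotome and muscle summed to 0.65 and 0.90 TPM in hESC, 0.19 and 0.20 in hDE, 5.71 and 0.31 in hAFE, and 4.03 and 5.54 in hPFE. In the first hAFE library and both hPFE libraries most of the sum was MEOX1, a homeobox factor of somites, with 0 and 0 TPM in hESC, 0.03 and 0 in hDE, 5.28 and 0.06 in hAFE, and 2.66 and 5.07 in hPFE. MEOX1 was 94.0-fold higher in the first hAFE library than in the second, while PAX1 had 0 counts in that first library and PAX9 differed little between them.

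Of the 8 somite genes 3 were tested, and in hPFE vs hESC 2 rose and 1 fell, where 45.0% of all tested genes were called. MEOX1 was at least 134-fold higher in hPFE than the floor of hESC (edgeR adjusted p = 0.0208, lost without either hESC library with 0.0857 and 0.0927). NKX3-2, a sclerotome factor that PAX1 and PAX9 are known to activate in mouse and chick, was at 0.72 and 0.25 TPM in hPFE, against 0 and 0.01 TPM in hESC. Its 65 counts in hPFE and 1 in hESC give a ratio of 73.6 with a 95% counting interval of 12.7 to 2950 (edgeR adjusted p = 0.00502), and NKX3-2 was not called in hPFE vs hAFE (edgeR adjusted p = 0.0725). TCF15, another somite factor, fell in hPFE vs hESC (log2 fold change -4.45, edgeR adjusted p = 0.00835), but not without the second hESC library (edgeR adjusted p = 0.0668). In hPFE the first library was the higher for PAX9, PAX1 and NKX3-2 and the second for MEOX1. TBX6, of presomitic mesoderm, was at 0.20 and 0.15 TPM in hPFE and at 0.26 and 0.15 TPM in hESC. The part of somite cells in the PAX1 and PAX9 levels was not tested.

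In the remaining comparisons of the somite list, MEOX1 and NKX3-2 rose in hPFE vs hDE, MEOX1 was called higher in hAFE vs hDE and in hAFE vs hESC, and edgeR called 0 of the 3 in hDE vs hESC and in hPFE vs hAFE. The shares of all tested genes called were 33.6% in hPFE vs hDE, 30.2% in hAFE vs hDE and 39.8% in hAFE vs hESC. They were 41.9% in hDE vs hESC and 7.49% in hPFE vs hAFE. In hDE vs hESC 0 had an unadjusted edgeR p under 0.05, DESeq2 called 0 and limma called 1, and in hPFE vs hAFE those counts were 1, 0 and 0. The MEOX1 call in hPFE vs hDE was lost without either hDE library or either hPFE library (edgeR adjusted p 0.068 to 0.196). The MEOX1 call in hAFE vs hDE failed in 9 of 13 alternatives, including the one without the first hAFE library (log2 fold change 2.23, edgeR adjusted p = 0.249, against 7.75 and 0.044 with all libraries). The NKX3-2 call in hPFE vs hDE was lost without either hDE library or the first hPFE library (edgeR adjusted p 0.0978 to 0.133). The MEOX1 call in hAFE vs hESC was lost without either hESC library (edgeR adjusted p 0.102 and 0.109), with limma (limma adjusted p = 0.177) and without the first hAFE library (edgeR adjusted p = 0.0533), which holds nearly all its hAFE counts. In hPFE vs hAFE the MEOX1 log2 fold change was 0.18 (edgeR adjusted p = 0.957), and without that library it was 5.69 and called (edgeR adjusted p = 0.00815).

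PAX proteins work with cofactors, of which 16 were listed and 15 tested. They include EYA1 to EYA4, SIX2, SIX4, SIX5, DACH1 and DACH2, whose families form a network with PAX genes in several organs, the Groucho-type corepressors TLE1 to TLE4, and the PAX-binding proteins PAXIP1 and PAXBP1. In hAFE vs hDE 8 rose and 1 fell, in hPFE vs hESC 7 rose and 1 fell, in hPFE vs hDE 7 rose and 1 fell, in hAFE vs hESC 7 rose, and in hDE vs hESC 4 rose and 3 fell. In hPFE vs hAFE 1 rose and 0 fell. Over all tested genes the shares called were 30.2% in hAFE vs hDE, 45.0% in hPFE vs hESC, 33.6% in hPFE vs hDE, 39.8% in hAFE vs hESC, 41.9% in hDE vs hESC and 7.49% in hPFE vs hAFE. The 7 of 15 cofactors called in hDE vs hESC are thus near the share of all genes. The median log2 fold change of the tested members was 1.04 in hAFE vs hDE, beside 0.01 over all tested genes.

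TLE2 was the 1 cofactor gene of 15 tested that rose in hPFE vs hAFE, where 7.49% of all tested genes were called. It was at 3.06 and 3.72 TPM in hDE, where PAX1 was at 0.02 and 0 TPM. TLE2 fell in hAFE vs hDE (log2 fold change -2.375, edgeR adjusted p = 0.00496). It did not pass in hPFE vs hDE (log2 fold change -0.059, edgeR adjusted p = 0.925). TLE2 was at 4.95 and 8.12 TPM in hPFE and 0.56 and 1.49 TPM in hAFE, without overlap. Its rise in hPFE vs hAFE was 2.32 on the log2 scale (SE 0.420, edgeR adjusted p = 0.0207). That call was lost in 5 of 14 alternatives, namely without either hESC or either hDE library (edgeR adjusted p 0.0548 to 0.0571) and with only the hPFE and hAFE libraries in the fit (0.143). The largest cofactor levels in hPFE were those of PAXBP1, at 22.75 and 35.51 TPM, followed by TLE1 at 19.44 and 33.89 TPM.

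Among cofactors that rose with PAX9 in hAFE vs hDE, SIX4 changed by 1.66 (edgeR adjusted p = 0.000436) and TLE4 by 3.10 on the log2 scale (edgeR adjusted p = 0.000599), and these calls held in all 14 alternatives. In hDE vs hESC, where PAX9 also rose, SIX4 fell by 1.17 (edgeR adjusted p = 0.00136) and TLE4 by 2.09 (edgeR adjusted p = 0.00211), while EYA1 rose by 1.68 (edgeR adjusted p = 0.0456). Neither SIX4 nor TLE4 passed in hPFE vs hESC (edgeR adjusted p = 0.223 and 0.111). In hAFE vs hDE the values were as follows for EYA1. EYA1 changed by 2.93 (edgeR adjusted p = 0.00566), a call lost without either hDE library (edgeR adjusted p 0.0518 and 0.0569). In hPFE vs hESC EYA2 rose by 4.61 (edgeR adjusted p = 0.00125) and DACH1 by 5.17 (edgeR adjusted p = 0.00325), again in all 14 alternatives. PAXIP1 fell by 0.77 in that comparison (edgeR adjusted p = 0.0186). The call was lost without the second hESC library (log2 fold change -0.62) or the first hPFE library (-0.58). It was also lost with limma on log2(TPM + 1) (change -0.04, limma adjusted p = 0.936), mean TPM being 5.70 in hPFE and 5.65 in hESC. On that scale the median tested gene was 0.362 higher in hPFE than in hESC.

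Of 18 genes reported as PAX targets in other tissues, 9 were tested. In hPFE vs hESC 5 rose (NKX3-2, BMP4, MSX1, MAF and MITF) and 2 fell (SLC5A5 and RET), in hPFE vs hDE 4 rose and 1 fell, in hAFE vs hESC 4 rose and 2 fell, in hAFE vs hDE 2 rose and 1 fell, in hDE vs hESC 1 rose and 1 fell, and in hPFE vs hAFE edgeR called 0, with 3 at an unadjusted edgeR p under 0.05, DESeq2 called 1 (RET) and limma 0. The shares of all tested genes called were 45.0% in hPFE vs hESC, 39.8% in hAFE vs hESC and 41.9% in hDE vs hESC. They were 33.6% in hPFE vs hDE, 30.2% in hAFE vs hDE and 7.49% in hPFE vs hAFE. Limma called 5 of the 9 in hPFE vs hESC, 2 in hAFE vs hESC and 0 in hDE vs hESC. RET, a receptor that PAX2 and PAX8 act on in kidney, fell by 5.52 on the log2 scale in hPFE vs hESC (SE 0.726, edgeR adjusted p = 0.00107). MSX1, a homeobox gene that acts with PAX9 in mouse tooth germs, was at 1.01 and 0.35 TPM in hPFE, against 0.02 and 0.03 TPM in hESC. Its rise of 4.34 (edgeR adjusted p = 0.0147) was lost without either hESC library or the first hPFE library (edgeR adjusted p 0.0935 to 0.11). MAF rose by 2.82 (edgeR adjusted p = 0.00740, lost without the second hESC library with 0.0679). SLC5A5, the iodide carrier that PAX8 activates in thyroid, was at most 0.01 TPM in hPFE. The calls of BMP4, MITF and SLC5A5 were also lost without either hESC library (edgeR adjusted p 0.0859 to 0.187) and without the second hPFE library (0.0851 to 0.186). MYF5, MYOD1 and GCM2 were at or under 0.06 TPM throughout.

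The genes whose pattern over the 8 libraries was most like that of PAX1, by Pearson correlation of log2(TPM + 1) among 13795 genes, were AGR3 (0.9994), MMP10 (0.9979), NOG (0.9978), IL11 (0.9976) and SERPINB2 (0.9968). All 5 were at or below 0.17 TPM before hPFE. NOG, an extracellular inhibitor of BMP signals, was at 4.00 and 3.94 TPM in hPFE and 0.11 and 0.17 TPM in hAFE. AGR3 was at 2.59 and 2.36 TPM in hPFE and 0 in the 6 other libraries. For these genes, as for PAX1, the hPFE libraries set the correlation, and the Spearman rho over the same libraries was 0.49 to 0.814.

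Those most like PAX9 were ZNF70 (0.9824), CNTN5 (0.9813), CUL9 (0.9805), EBF4 (0.9805) and CELSR1 (0.9796). The correlation does not reflect the size of a change, and ZNF70 was only at 0.66 and 0.58 TPM in hESC and 1.32 and 1.11 in hPFE. On the log2(TPM + 1) scale used, the median tested gene was 0.496 higher in hAFE and 0.68 higher in hPFE than in hDE. CNTN5, a neural adhesion molecule, was at 0 and 0 TPM in hESC, 0.08 and 0.03 in hDE, 4.36 and 2.84 in hAFE, and 10.17 and 2.97 in hPFE, with the first library higher in both late stages, as for PAX9. CELSR1, an atypical cadherin of planar cell polarity, was at 0.98 and 0.69 TPM in hESC, 1.33 and 1.20 in hDE, 2.57 and 2.28 in hAFE, and 4.87 and 4.05 in hPFE. None of the 10 genes was a PAX gene or stood on the pharyngeal, cofactor or target lists.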

How the data were processed

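Strand-specific paired-end RNA-seq of ribosome-depleted total RNA was made with dUTP marking, per the labels' protocols. The authors deposited RSEM gene results, per the file headers; the submitters' processing notes name RSEM, DESeq2 and hg38, with no versions. Aligner, annotation and strand setting of the counting were not given in the sources used here. Expected counts, as deposited, are RSEM's estimated counts, with ambiguous reads divided among genes. The deposited TPM values are length-corrected transcript shares with 2 decimals. Deposited mean lengths and posterior standard deviations of the count were read as further columns. Of 59526 rows, 58780 carried gene identifiers, all matched to GENCODE 29, and the 746 other rows held 0 counts.

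Expected counts were rounded and filtered with filterByExpr, which left 17446 genes, 3 of the 7 PAX genes among them. A model over all 8 libraries with 4 stage terms was fitted with edgeR 4.0.16 in R 4.3.3 (TMM scaling; quasi-likelihood F test; p-values adjusted by the Benjamini-Hochberg method over all tested genes; threshold 0.05). The SE is the absolute log2 fold change divided by the square root of F. Floors are 3 counts over a stage and intervals are exact 95% binomial intervals; both reflect counting error alone, because no molecular identifiers separate molecules from PCR copies. Alternatives were DESeq2 1.42.0, RLE scaling, no filter on counts, only the libraries compared, a replicate block, limma 3.58.1 on log2(TPM + 1), and leaving out each library, 14 in all; a stage left with 1 library is assumed to vary like the others. The fit was tested on simulated data.

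All 7 genes are named with every library. From each list at most 4 called genes with the lowest p and 2 others with the highest TPM were eligible for naming, and further markers of other tissues were named after their values were seen. Genes overlapping or within 250 kb of PAX1 and PAX9 were named where called, and the 5 most similar genes by Pearson correlation were taken among genes with at least 1 TPM in 2 libraries. Members and gene lists were chosen with earlier results of these data known. Some genes of these lists are counted but their own results are not reported here.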

Additional observations from a re-analysis of the deposited data

How the results depend on the processing

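Of 248 alternative values for PAX1, PAX9 and PAX6, 227 kept direction and side of the threshold, 5 lost a call, 8 gained one and 8 changed sign; for the other named genes 687 of 834 kept both, 129 lost a call, 16 gained one and 2 changed sign. The cause was not tested in any case. The PAX genes called numbered 1 in hDE vs hESC, but 2 with no count filter, 2 with only the libraries compared and 0 with limma on log2(TPM + 1); in hAFE vs hDE 1, but 2 with no filter; in hPFE vs hAFE 1, but 0 with DESeq2, 0 with only the libraries compared and 2 with no filter; in hPFE vs hESC 2, but 4 with no filter; in hAFE vs hESC 1, but 3 with no filter. Leaving out single libraries gave 0 to 1 in hDE vs hESC, 0 to 2 in hAFE vs hDE, 1 to 2 in hPFE vs hAFE, 2 to 3 in hPFE vs hESC, 2 to 3 in hPFE vs hDE and 1 to 2 in hAFE vs hESC.

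Over all genes, 1306 were called in hPFE vs hAFE, but 3234 with no filter, 52 with only the libraries compared and 812 with limma. Limma called 10284 in hPFE vs hDE (main count 5867) and 4290 in hAFE vs hESC (6938). On the log2(TPM + 1) scale of limma the median tested gene changed by 0.68 in hPFE vs hDE and by 0.196 in hAFE vs hESC. In the main fit it changed by -0.02 and 0.014. Without single libraries the counts were 3695 to 8465 in hDE vs hESC, 2435 to 6363 in hAFE vs hDE, 479 to 1552 in hPFE vs hAFE, 3822 to 8422 in hPFE vs hESC, 2630 to 6468 in hPFE vs hDE and 2899 to 8178 in hAFE vs hESC.

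Signs changed for values that had not passed. PAX1 in hAFE vs hDE was -2.54 to 5.32 without single libraries, the lowest without the second hAFE library. PAX6 in hAFE vs hDE was 0.14 with limma and 0.26 without the second hAFE library (range without single libraries -2.11 to 0.26). PAX6 in hPFE vs hAFE was -0.37 without that library and -0.99 without the first hPFE library (range -0.99 to 2.00). PAX6 in hPFE vs hDE was 0.43 with limma and 0.55 without the second hPFE library (range -1.46 to 0.55), and in hAFE vs hESC -0.15 without the first hAFE library (range -0.15 to 2.21). The PAX6 ratio of hAFE to hDE levels was 1.72 in TPM and 0.71 in CPM. MEOX1 in hPFE vs hAFE was -0.81 without the second hAFE library and -0.01 without the second hPFE library (range -0.81 to 5.69).

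The correlation of replicate differences between stages was -0.0434 to 0.0605, so no shift shared by replicate number was seen. These values cannot show whether libraries of the same number shared a culture or a run, and the labels do not say. With a replicate block the PAX1 log2 fold change in hPFE vs hAFE was 6.10 (edgeR adjusted p = 0.0268), the PAX9 value 1.16 (edgeR adjusted p = 0.128), and no count of called PAX genes changed. Depth limits PAX2, PAX3, PAX7 and PAX8, whose 0 to 30 counts per library fell under the count filter; with no filter PAX3 and PAX7 had calls.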
